A study of Mus musculus with 11 samples.

Results

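The comparison set NIH/3T3 cells carrying a Nono knockout (Nono KO) against NIH/3T3 cells carrying a Sox5 knockout (Sox5 KO). NIH/3T3 is an established line of mouse embryonic fibroblasts. The comparison used 6 of the 11 RNA-seq libraries of the study, 3 for each genotype, chosen by the genotype and replicate in their names. Of the 21684 genes in the count table, 13332 passed a filter on low counts and were tested. The study asked which genes depend on Xap5, Nono and Sox5 while fibroblasts form primary cilia, and it also had 2 wild-type libraries (WT) and 3 Xap5 knockout libraries (Xap5 KO). All groups, WT included, were taken after 24 h without serum. The sources used here do not say how the knockouts were made, whether a genotype was 1 clone, or whether replicates were separate cultures. Each genotype was taken as 1 line, so the p-values measure only the spread between libraries of the same genotype, which may be technical. In the edgeR tests that spread was estimated over all 11 libraries, WT and Xap5 KO included. A property of the line cannot be told apart from an effect of the knockout.

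NONO is a nuclear RNA- and DNA-binding protein of the DBHS family. It pairs with its relatives SFPQ and PSPC1, is a core protein of the nuclear bodies called paraspeckles, and takes part in transcription and RNA processing. SOX5 is a transcription factor of the SoxD group that binds DNA through an HMG box and is best known for acting with SOX6 and SOX9 in cartilage. The primary cilium is the antenna-like organelle of resting cells, built by intraflagellar transport and used by fibroblasts to receive Hedgehog signals.

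Both lines carried fibroblast RNA, and they differed across whole chromosomes and along transcript length. The Nono KO libraries held 38050571 to 43498383 counts and the Sox5 KO libraries 30205878 to 32788225. Distances between libraries on log2 CPM (counts scaled to library size with TMM factors) were 68.1 to 68.5 within Nono KO, 57.4 to 59.1 within Sox5 KO and 140.7 to 145.6 between the lines. All 15 fibroblast markers were detected, whereas epithelial markers were near 0 and only Cdh1 passed the filter. Chromosome Y genes summed to at most 0.390 CPM in any Nono KO library and 0.0678 CPM in any Sox5 KO library, against 196 CPM or more in WT. The labels named no sequencing batch or date.

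The Sox5 KO libraries stood apart in transcript length. Tested genes were split into 5 equal classes by the length of their longest transcript, and the median deviation of the longest class was subtracted from that of the shortest. On the log2 scale this difference was 0.44, 0.39 and 0.27 in the Sox5 KO libraries and -0.33, -0.38 and -0.41 in the Nono KO libraries. It was -0.55 and -0.56 in WT and -0.37 to -0.40 in Xap5 KO, so WT and Xap5 KO lay nearer Nono KO than Sox5 KO. Deviations were taken from the mean of the Nono KO and Sox5 KO libraries, so these lines fall on opposite sides of 0 wherever they differ. The exact two-sided permutation test of Nono KO against Sox5 KO gave p = 0.1, the smallest that 3 against 3 libraries allow. The median log2 fold change (Nono KO minus Sox5 KO) ran from -0.33 in the shortest class to 0.39 in the longest. RNA length or quality as a source of this trend was not tested. Values with an added correction for length and GC content stand beside the gene groups whose median it turned or moved by more than 1.5 times.

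**Figure D1:**
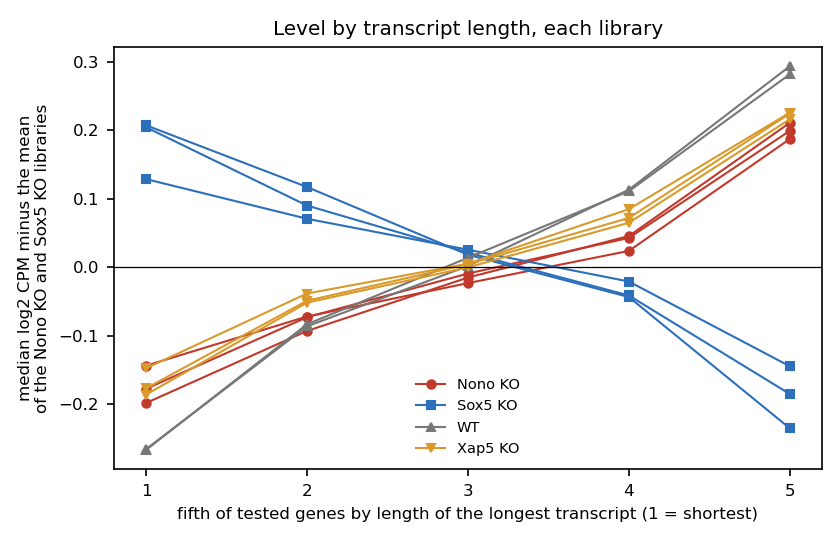
Median log2 CPM of tested genes in each of 5 classes of transcript length, as a deviation from the mean of the Nono KO and Sox5 KO libraries, with 1 line per library. The 3 Sox5 KO libraries decline from short to long transcripts, and the other 8 libraries climb.

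Differences also ran along whole chromosomes. Of the 447 tested genes on chromosome 12, 75.8% were called higher in Nono KO and 4.92% higher in Sox5 KO, and their median log2 fold change was 0.77. Chromosome 16 had a median of 0.43 over 404 genes, with 57.4% called higher in Nono KO. In the other direction, chromosome 19 had a median of -0.56 over 482 genes, with 61% called higher in Sox5 KO, and chromosome X had a median of -0.53 over 438 genes, with 59.4%. The median lay more than 0.1 from 0 on 16 chromosomes. On chromosomes 12, 16, 19 and X every Nono KO library lay on one side of every Sox5 KO library. The same held on all other autosomes, also on chromosome 5, whose median was -0.01. Copy number was not measured, and its part in these differences was not tested.

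**Figure D2:**
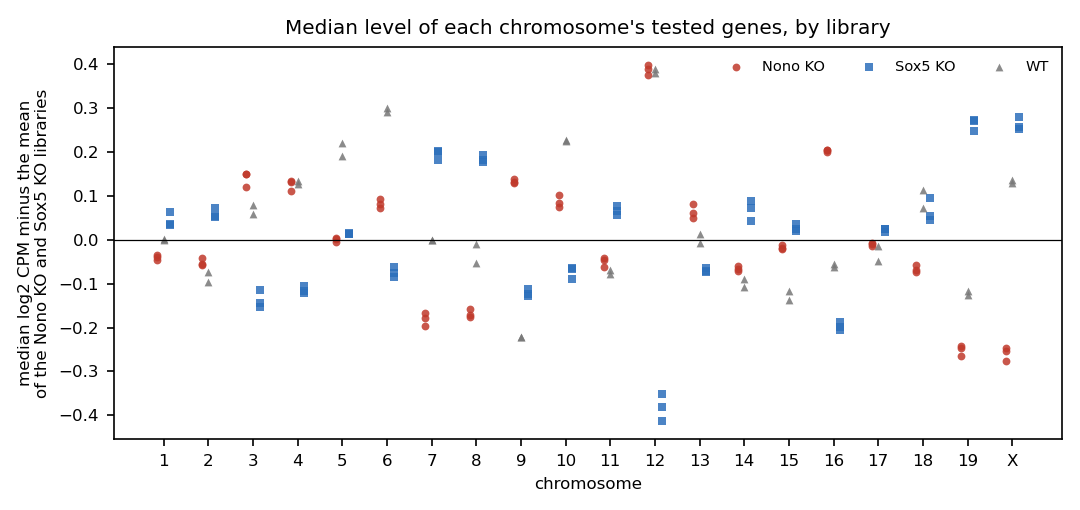
Median log2 CPM of the tested genes of each chromosome in each Nono KO, Sox5 KO and WT library, as a deviation from the mean of the 6 knockout libraries compared. Chromosomes 12 and 16 are higher in Nono KO, chromosomes 7, 8, 19 and X are higher in Sox5 KO, and replicates of a line lie close together.

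The targeted genes were examined first. Nono stood at 33.95, 34.00 and 27.6 CPM in the Nono KO libraries and 409, 462 and 444 CPM in those of Sox5 KO, with a WT mean of 354 CPM. Every Nono KO library was far below every Sox5 KO library, and the log2 fold change was -3.78 (SE 0.07, edgeR adjusted p = 2.74e-19). Sox5 stood at 7.01, 7.57 and 8.75 CPM in the Nono KO libraries and 12.6, 13.9 and 13.9 CPM in those of Sox5 KO, with a WT mean of 47.8 CPM. Both lines were thus below WT in Sox5 RNA, and the line lower of the pair was Nono KO. Its log2 fold change was -0.79 (SE 0.12, edgeR adjusted p = 5.62e-06). The Sox5 level therefore does not mark the Sox5 KO libraries against Nono KO, and Sox5 shares exon sequence with a gene on the opposite strand. Fam50a, the mouse symbol of the gene called Xap5 in the labels, stood at 47.2, 49.3 and 46.3 CPM in the Nono KO libraries and 107, 121 and 99.6 CPM in those of Sox5 KO. The groups did not overlap, and its log2 fold change was -1.20 (SE 0.07, edgeR adjusted p = 9.54e-12). Fam50a and Nono both lie on chromosome X, whose median was -0.53.

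The lines differed at most tested genes. At an adjusted p under 0.05, 8461 of 13332 genes were called (63.5%), of which 4113 (30.9% of those tested) were higher in Nono KO and 4348 (32.6%) higher in Sox5 KO. Libraries of the lines did not overlap at 9218 genes (69.1%). A call and a difference of at least 2-fold were met by 2269 genes (17% of those tested), 1283 higher in Nono KO (9.62%) and 986 higher in Sox5 KO (7.4%). Differences of at least 4 on the log2 scale were called at 197 genes higher in Nono KO and 199 higher in Sox5 KO. Between 2 and 4, the counts were 299 and 171. The median log2 fold change of all tested genes was -0.00, and the counts of gene groups below are read against the shares given here. Most genes named within a group were picked as its called members with the largest differences. Their lack of overlap between lines was therefore close to fixed by the choice and describes those genes only.

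Some genes were read in one line and not at all in the other. In all, 33 genes had 0 counts in every Sox5 KO library and a mean of at least 1 CPM in Nono KO, and 33 genes had the reverse pattern. At a limit of 3 counts in every library, the numbers were 55 and 39. Of the 55 genes missing from Sox5 KO, 23 had a WT mean of at least 1 CPM and 11 had at most 3 counts in both WT libraries. Of the 39 missing from Nono KO, 5 had a WT mean of at least 1 CPM and 12 had at most 3 counts in both WT libraries. Folds against a line with no counts are lower bounds, computed against 3 counts per library, and cover counting error only.

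The first pair of genes in each direction illustrates this, and their promoters are shown because no count of the gene was found in the other line. The sequences are those of RefSeq on GRCm38.p6, from 250 bases before to 50 bases after the start of transcription, written 5′ to 3′ on the gene's strand. Crabp1, a cytosolic retinoic acid binding protein, starts within chr9:54764498-54764797, plus strand. Col11a1, a chain of the fibrillar collagen XI, starts within chr3:114030290-114030589, plus strand. Hpse2, a heparanase relative without known enzyme activity, starts within chr19:43388306-43388605, minus strand. Hpse, the heparanase that cuts heparan sulfate chains, starts within chr5:100719667-100719966, minus strand. None of the promoters holds AACAAT, the core sequence bound by SOX factors, or CACGTG, the E-box bound by clock factors, on either strand, so no letters are in capitals.
Crabp1: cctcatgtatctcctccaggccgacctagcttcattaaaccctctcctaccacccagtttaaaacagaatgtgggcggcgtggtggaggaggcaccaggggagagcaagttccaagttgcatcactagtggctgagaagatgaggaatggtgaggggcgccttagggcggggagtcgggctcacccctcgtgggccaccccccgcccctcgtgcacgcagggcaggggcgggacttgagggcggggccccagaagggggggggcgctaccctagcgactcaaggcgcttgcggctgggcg
Col11a1: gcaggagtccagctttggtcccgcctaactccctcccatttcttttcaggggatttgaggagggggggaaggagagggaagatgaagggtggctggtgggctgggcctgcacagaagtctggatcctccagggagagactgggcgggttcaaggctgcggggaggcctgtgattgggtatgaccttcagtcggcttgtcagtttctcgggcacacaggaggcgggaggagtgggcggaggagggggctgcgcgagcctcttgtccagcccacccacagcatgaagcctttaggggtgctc
Hpse2: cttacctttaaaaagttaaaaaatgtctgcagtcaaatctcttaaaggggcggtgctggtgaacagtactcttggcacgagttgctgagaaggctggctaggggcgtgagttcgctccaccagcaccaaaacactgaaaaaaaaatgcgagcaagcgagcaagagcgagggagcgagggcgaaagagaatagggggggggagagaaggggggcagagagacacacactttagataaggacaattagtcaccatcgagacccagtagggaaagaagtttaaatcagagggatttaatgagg
Hpse: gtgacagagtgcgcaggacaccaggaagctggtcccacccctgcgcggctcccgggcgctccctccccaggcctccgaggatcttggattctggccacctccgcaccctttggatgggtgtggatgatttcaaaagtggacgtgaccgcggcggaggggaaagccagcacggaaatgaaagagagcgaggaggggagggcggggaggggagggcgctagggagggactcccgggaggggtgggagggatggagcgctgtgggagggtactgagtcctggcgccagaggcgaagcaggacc

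The shares of promoters that hold each motif are given as a description. AACAAT, searched on both strands, was in 6.31% of the 966 promoters matched to genes at least 2-fold up in Nono KO, in 6.98% of the 716 matched to genes higher in Sox5 KO, and in 5.77% of the 10405 promoters of all tested genes. CACGTG, a palindrome, was in 7.14%, 10.3% and 9.76% of the same promoters. Among all 32851 promoters of the table, the shares were 10.7% for AACAAT and 7.15% for CACGTG. A match describes these letters only, and no test was run on the shares.

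Genes that separated the lines most in favour of Nono KO were led by Crabp1. It stood at 128, 139 and 107 CPM in Nono KO, at 0 counts in all Sox5 KO libraries and at a WT mean of 24.1 CPM, so it was at least 1289-fold higher (edgeR adjusted p = 8.95e-13). Col11a1 stood at 63.02, 61.01 and 67.5 CPM in Nono KO and 0 in Sox5 KO, at least 660.1-fold higher, with a WT mean of 1.86 CPM. Plscr4, a phospholipid scramblase, was at least 208-fold higher, Zfp422, a zinc finger protein, at least 114-fold, and Dpyd, which starts the breakdown of pyrimidines, at least 72.3-fold. Magea8, of the MAGE family of germ-line and tumour antigens, stood at 8.54, 10.2 and 8.51 CPM in Nono KO and had no counts in Sox5 KO. The matrix and cell-surface genes Edil3 and Gpc4 were also in this set. Edil3, a secreted integrin ligand, stood at 100.1, 101 and 113 CPM in the Nono KO libraries and 0, 0.203 and 0 CPM in those of Sox5 KO, a log2 fold change of 10.59 (SE 0.79, edgeR adjusted p = 3.14e-12). Gpc4, a glypican that carries heparan sulfate, stood at 128, 127 and 147 CPM in the Nono KO libraries and 0.0618, 0.237 and 0 CPM in those of Sox5 KO, a log2 fold change of 10.39 (SE 0.64, edgeR adjusted p = 7.39e-13). In both genes the Sox5 KO libraries were at or near 0 and WT carried counts, at 117 and 33.7 CPM. Mfap4, a microfibril protein, had a log2 fold change of 8.38, and Rims2, a presynaptic scaffold, one of 8.05. Each had 4 counts in all Sox5 KO libraries together. Over the alternatives run, Mfap4 ranged from 7.80 to 12.21 and Rims2 from 7.48 to 9.30. S100a16, a calcium-binding protein, had 2 counts in all Sox5 KO libraries together and a ratio of 306 (95% counting interval 84.4 to 2529.5).

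Ptprc, which encodes the leukocyte surface phosphatase CD45, stood at 6.00, 7.31 and 6.68 CPM in Nono KO and 0 in Sox5 KO, at least 68.9-fold higher. No other leukocyte marker was called higher in Nono KO. Of 12 markers, 7 passed the filter, 1 was called higher in Nono KO (Ptprc) and 1 higher in Sox5 KO (Cd14), and their summed level was 13.5 to 19.2 CPM in Nono KO and 12.2 to 13.5 CPM in Sox5 KO. Adgre1, Itgam and Cx3cr1 had at most 6, 2 and 4 counts in any Nono KO library. The median log2 fold change of the 7 tested markers was 0.50. Corrected for length and GC it was 0.85, with 3 members called on the Nono KO side and 1 on the other.

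The genes most in favour of Sox5 KO were led by the heparanase pair. Hpse2 stood at 27.5, 37.5 and 29.7 CPM in Sox5 KO and at 0 in every Nono KO, WT and Xap5 KO library, so it was at least 412-fold higher in Sox5 KO than in Nono KO (edgeR adjusted p = 1.27e-13). Hpse stood at 12.7, 13.3 and 12.9 CPM in Sox5 KO and 0 in Nono KO, at least 169-fold higher. Hs6st2, which adds 6-O-sulfate to the same heparan sulfate chains, stood at 33.00, 33.04 and 36.5 CPM in Sox5 KO and had 2 counts in Nono KO, a ratio of 2013 (95% counting interval 557 to 16633). Ptpn20, a tyrosine phosphatase, Abcg1, a sterol exporter, Ica1, a vesicle-associated protein, Agtr2, an angiotensin receptor, and Vmn1r233, a vomeronasal receptor, all had no counts in Nono KO and were at least 137-fold, 130.4-fold, 113-fold, 95.7-fold and 81.7-fold higher in Sox5 KO. Ndn, the imprinted growth suppressor necdin, stood at 38.8, 36.9 and 37.4 CPM in Sox5 KO and at a WT mean of 35.7 CPM, but at 3 counts in all Nono KO libraries together, a ratio of 1482 (95% counting interval 507 to 7189). Ecel1, a membrane peptidase, had a log2 fold change of -10.29, Nxf3, of the RNA export factor family, one of -9.74, and Brinp3, a secreted neural protein, one of -9.38. Over the alternatives run, Ecel1 ranged from -10.86 to -9.78, Nxf3 from -13.76 to -9.17 and Brinp3 from -10.97 to -8.87. For all 24 genes of both directions, no Nono KO library overlapped a Sox5 KO library, which was part of how they were chosen.

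**Figure D3:**
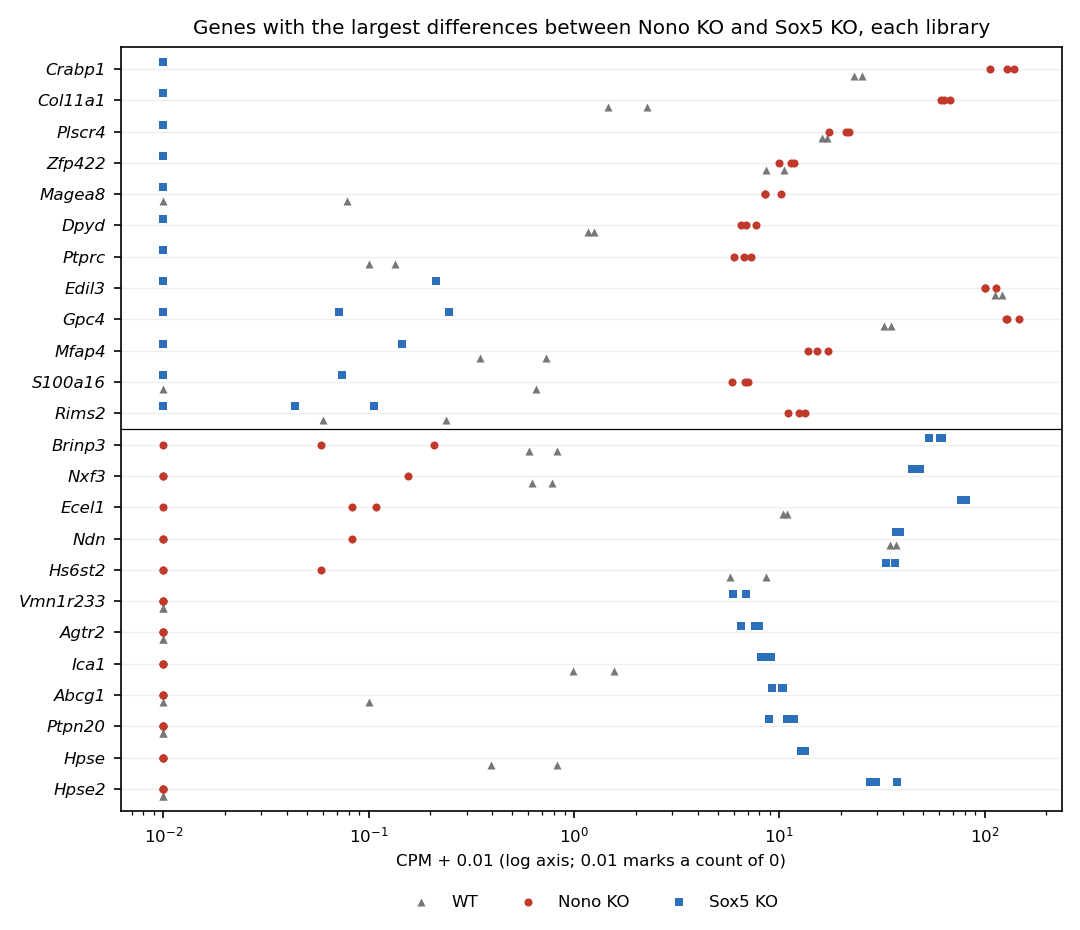
CPM in each library, on a log axis after adding 0.01, of the 12 genes with the largest differences in each direction, with WT for reference. The upper 12 genes are at or near 0 in Sox5 KO and the lower 12 at or near 0 in Nono KO, while WT lies with either line or between them, depending on the gene.

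Extracellular matrix genes were more often called higher in Nono KO than in Sox5 KO. Of 29 tested collagen genes (33 in the table), 17 were higher in Nono KO, 5 were higher in Sox5 KO and 7 were not called, with a median log2 fold change of 0.69. Col3a1, a fibrillar collagen of soft tissue, stood at 4688, 4554 and 5469 CPM in the Nono KO libraries and 609, 525 and 598 CPM in those of Sox5 KO, a log2 fold change of 3.09 (SE 0.08, edgeR adjusted p = 1.34e-14). Col1a1, the main chain of collagen I, stood at 6735, 6002 and 8182 CPM in the Nono KO libraries and 1881, 1675 and 1748 CPM in those of Sox5 KO, a log2 fold change of 1.98 (SE 0.09, edgeR adjusted p = 4.36e-11). Col8a1, a short-chain network collagen, stood at 350.1, 358 and 307 CPM in the Nono KO libraries and 51.3, 52.3 and 57.2 CPM in those of Sox5 KO, a log2 fold change of 2.66 (SE 0.07, edgeR adjusted p = 1e-17). The lines were separated without overlap in all 3 genes, and WT means were 379, 1089.6 and 35.6 CPM. Col15a1, a basement membrane collagen, ran the other way, at 0.0987, 0 and 0.331 CPM in the Nono KO libraries and 43.9, 39.04 and 45.7 CPM in those of Sox5 KO, with a WT mean of 41.9 CPM and a log2 fold change of -8.26 (SE 1.05, edgeR adjusted p = 8.36e-06). Collagen transcripts are long, with a median of 6450 bases against 3376 for all tested genes. With the length and GC correction, which was added after seeing the data, the median was 0.06, with 13 members called on the Nono KO side and 9 on the other. Without Sox5 KO replicate 3 it was 1.07.

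Proteoglycans were the most one-sided of the matrix lists by median. Of 23 tested (29 in the table), 17 were higher in Nono KO, 1 was higher in Sox5 KO and 5 were not called, with a median log2 fold change of 1.79. Lum, the small leucine-rich proteoglycan lumican that orders collagen fibrils, stood at 196, 195 and 215 CPM in the Nono KO libraries and 3.74, 4.91 and 3.29 CPM in those of Sox5 KO. The Nono KO libraries were far above the Sox5 KO libraries, WT was between them at 51.2 CPM, and the log2 fold change was 5.67 (SE 0.10, edgeR adjusted p = 1.35e-19). Aspn, its relative asporin, stood at 549, 528 and 676 CPM in the Nono KO libraries and 22.6, 17.7 and 21.9 CPM in those of Sox5 KO, and WT at 5.49 CPM. The log2 fold change of Aspn was 4.81 (SE 0.13, edgeR adjusted p = 2.2e-10). With the length and GC correction the median of the list was 0.96, with 17 members called on the Nono KO side and 2 on the other.

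Elastic fibre genes and lysyl oxidases, the enzymes that cross-link collagen and elastin, had a median log2 fold change of 0.61, with 11 called higher in Nono KO and 5 called higher in Sox5 KO of 19 tested. Fbln5, which organises elastic fibres, stood at 651, 643 and 688 CPM in the Nono KO libraries and 73.4, 72.2 and 66.2 CPM in those of Sox5 KO, a log2 fold change of 3.23 (SE 0.07, edgeR adjusted p = 7.67e-19). Fbln1, another fibulin, was 7.76-fold higher in Nono KO. Every Nono KO library was above every Sox5 KO library in both. The count higher in Sox5 KO was 3 without Nono KO replicate 1, and with the length and GC correction the median was 0.37, with 11 members called on the Nono KO side and 7 on the other.

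Matricellular glycoproteins had a median log2 fold change of 0.39, with 12 called higher in Nono KO and 4 called higher in Sox5 KO of 19 tested. Fn1, fibronectin, stood at 19888, 21224 and 20404 CPM in the Nono KO libraries and 5758, 6404 and 6734 CPM in those of Sox5 KO, a log2 fold change of 1.70 (SE 0.06, edgeR adjusted p = 6.33e-15). Spp1, the integrin-binding phosphoprotein osteopontin, was 2.61-fold higher in Nono KO. Ccn3, a member of the CCN family, was the exception among those named, at 3.08, 3.09 and 2.79 CPM in the Nono KO libraries and 18.5, 17.7 and 16.6 CPM in those of Sox5 KO, which was 5.88-fold lower in Nono KO. No library of one line reached the range of the other in these 3 genes.

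Among matrix proteases and their inhibitors, 29 were tested, 16 were higher in Nono KO, 7 were higher in Sox5 KO and 6 were not called, with a median log2 fold change of 0.39. Timp3, a matrix-bound inhibitor of metalloproteases, stood at 864, 906 and 892 CPM in the Nono KO libraries and 208, 198 and 209.7 CPM in those of Sox5 KO, a log2 fold change of 2.11 (SE 0.05, edgeR adjusted p = 3.31e-18). The proteases Adamts12 and Adamts9 were 7.65-fold and 3.50-fold higher in Nono KO. Of the 7 members called in the other direction, 4 differed by at least 2-fold. The median was 0.19 with the length and GC correction.

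Receptors and junction proteins that bind the matrix or neighbouring cells were also higher in Nono KO. Of 30 integrin, laminin and nidogen genes, 19 were higher in Nono KO, 6 were higher in Sox5 KO and 5 were not called, with a median log2 fold change of 0.85. Lama2, the alpha chain of laminin-211, stood at 14.9, 14.9 and 22.2 CPM in the Nono KO libraries and 0.155, 0.271 and 0.383 CPM in those of Sox5 KO, with a WT mean of 24.6 CPM. Itga1, a collagen-binding integrin chain, stood at 19.8, 19.2 and 16.4 CPM in the Nono KO libraries and 0.588, 0.576 and 0.447 CPM in those of Sox5 KO, and Itgb8, a chain of a TGF-beta-activating integrin, at 92.7, 93.9 and 99.4 CPM in the Nono KO libraries and 10.8, 8.95 and 9.22 CPM in those of Sox5 KO. Their log2 fold changes were 5.99, 5.10 and 3.30, with no overlap of libraries. Of 14 cadherins and protocadherins, 10 were higher in Nono KO, 1 was higher in Sox5 KO and 3 were not called, with a median log2 fold change of 0.98. Pcdh10, Pcdh18 and the giant cadherin Fat4 were 18.8-fold, 6.03-fold and 3.97-fold higher in Nono KO, all 3 on chromosome 3. The length and GC correction left a cadherin median of 0.67, with 6 members called on the Nono KO side and 3 on the other, and an integrin and laminin median of 0.55.

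Contractile and smooth muscle genes had a median log2 fold change of 0.60, with 17 called higher in Nono KO and 2 called higher in Sox5 KO of 25 tested. Actg2, smooth muscle gamma actin, stood at 39.6, 42.4 and 37.9 CPM in the Nono KO libraries and 6.56, 6.37 and 6.86 CPM in those of Sox5 KO, with a WT mean of 0.311 CPM. Mylk, the kinase of myosin light chain, was 4.03-fold higher in Nono KO, and Csrp2, a LIM protein of smooth muscle, 3.54-fold. In these genes the lines did not overlap.

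Fibroblast markers themselves were mostly higher in Nono KO, and several are collagens listed above. Of 15, 11 were higher in Nono KO, 1 was higher in Sox5 KO and 3 were not called, with a median log2 fold change of 1.06. Their summed level was 52044 to 57080.1 CPM in Nono KO and 22571 to 23012 CPM in Sox5 KO. The median was 0.66 with the length and GC correction. Among markers of related cell types, 4 of 7 tested adipocyte genes were called higher in Nono KO and 3 higher in Sox5 KO. For osteoblast genes the counts were 3 and 1 of 8, and for skeletal muscle genes 1 and 0 of 6. With the length and GC correction, the adipocyte median was 0.18 against 0.33, and the osteoblast median -0.13 against 0.20. Endothelial markers summed to 2.96 to 4.91 CPM in Nono KO and 8.04 to 11.05 CPM in Sox5 KO.

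**Figure D4:**
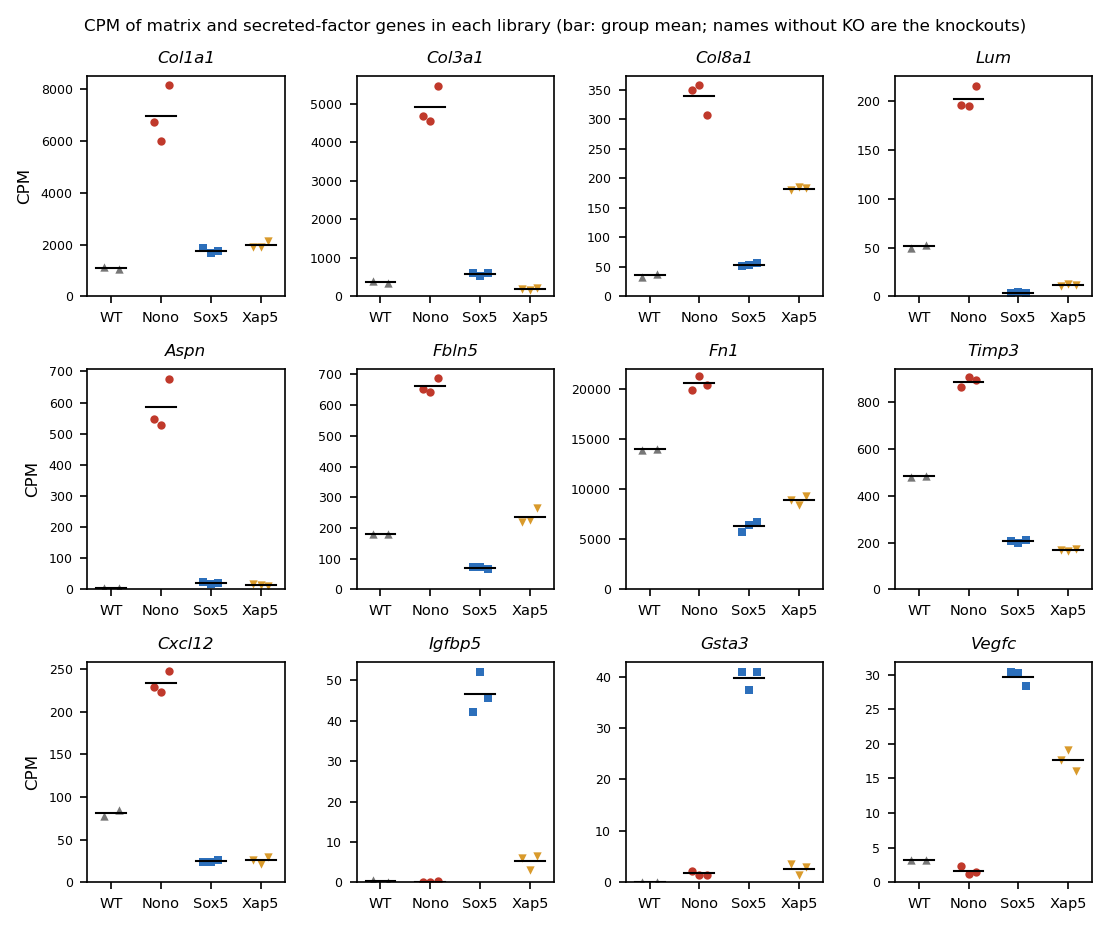
CPM of 12 matrix and secreted-factor genes in each library of WT, Nono KO, Sox5 KO and Xap5 KO, with a bar at each group mean. The 9 genes from Col1a1 to Cxcl12 are higher in Nono KO than in Sox5 KO, and Igfbp5, Gsta3 and Vegfc are higher in Sox5 KO.

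Growth factor pathways are described from ligand to target. Of 22 TGF-beta pathway genes, 12 were higher in Nono KO, 3 were higher in Sox5 KO and 7 were not called, with a median log2 fold change of 0.36. Among ligands, Tgfb3 stood at 188, 196 and 187 CPM in the Nono KO libraries and 56.03, 58.6 and 59.5 CPM in those of Sox5 KO, a log2 fold change of 1.71 (SE 0.05, edgeR adjusted p = 3.04e-16). Among the intracellular brakes of the pathway, Skil, a SMAD corepressor, stood at 70.6, 64.8 and 77.2 CPM in the Nono KO libraries and 15.6, 13.4 and 16.7 CPM in those of Sox5 KO, and Ldlrad4, a membrane protein that limits SMAD activation, at 14.7, 14.6 and 12.1 CPM in the Nono KO libraries and 1.21, 1.22 and 1.59 CPM in those of Sox5 KO. Their log2 fold changes were 2.22 and 3.36. Ligand and brakes were higher in Nono KO in every library, but the log2 fold change of Tgfb3 was 0.94 at the lowest of the alternatives run.

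Of 24 tested genes of the BMP pathway (38 in the table), 11 were higher in Nono KO, 7 were higher in Sox5 KO and 6 were not called, with a median log2 fold change of 0.28. Fst, follistatin, which binds ligands outside the cell, stood at 5.85, 5.16 and 6.96 CPM in the Nono KO libraries and 0.371, 0.102 and 0.223 CPM in those of Sox5 KO. Fstl1, a follistatin-like glycoprotein, stood at 1556, 1468 and 1599 CPM in the Nono KO libraries and 331, 303 and 327 CPM in those of Sox5 KO, a log2 fold change of 2.27 (SE 0.05, edgeR adjusted p = 4.55e-18). Both were higher in all Nono KO libraries. With chromosome medians removed the BMP median was 0.04, with 10 members called on the Nono KO side and 6 on the other. With the length and GC correction it was 0.04 as well, and without Sox5 KO replicate 1 0.19.

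The Wnt list had a median log2 fold change of 0.73, with 19 called higher in Nono KO and 5 called higher in Sox5 KO of 31 tested (52 in the table). Rspo2, a secreted enhancer of Wnt signalling, stood at 5.03, 4.82 and 6.60 CPM in the Nono KO libraries and 0.124, 0.237 and 0.191 CPM in those of Sox5 KO. Dkk2, a secreted modulator of the Wnt co-receptor, stood at 8.54, 8.09 and 6.24 CPM in the Nono KO libraries and 0.990, 1.49 and 1.75 CPM in those of Sox5 KO. Fzd4, a Wnt receptor, stood at 15.5, 15.8 and 16.8 CPM in the Nono KO libraries and 5.26, 5.59 and 5.87 CPM in those of Sox5 KO, and WT at 2.32 CPM. All 3 were higher in Nono KO without overlap, with log2 fold changes of 4.88, 2.43 and 1.52.

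Notch genes moved in both directions, as 20 were tested and 7 were higher in Nono KO, 6 were higher in Sox5 KO and 7 were not called, with a median log2 fold change of 0.57. The ligand Jag1 stood at 53.5, 49.9 and 66.7 CPM in the Nono KO libraries and 6.22, 5.25 and 5.29 CPM in those of Sox5 KO, a log2 fold change of 3.34 (SE 0.12, edgeR adjusted p = 5.1e-15). The receptor Notch2 stood at 273, 289 and 281 CPM in the Nono KO libraries and 64.6, 66.9 and 65.6 CPM in those of Sox5 KO, 4.28-fold higher in Nono KO (edgeR adjusted p = 8.04e-18). The target Hes1, a repressor that oscillates in fibroblasts, stood at 13.8, 16.4 and 16.8 CPM in the Nono KO libraries and 1.05, 1.52 and 1.34 CPM in those of Sox5 KO, a log2 fold change of 3.58 (SE 0.18, edgeR adjusted p = 2.91e-13). These 3 genes, named for the size of their differences at a mean of at least 5 CPM, were higher in Nono KO, without overlap. They do not stand for the list. Called differences of 2-fold or more were found at 4 members on each side, and the lowest log2 fold change of any member was -2.97. Notch2 shares exon sequence with a gene on its own strand, and with chromosome medians removed the list median was 0.12, with 5 members called on the Nono KO side and 7 on the other. It was 0.31 with the replicate block and 0.33 with a stricter filter.

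Hedgehog signalling passes through the cilium, and its genes are given by role. Of 25 tested, 8 were higher in Nono KO, 7 were higher in Sox5 KO and 10 were not called, with a median log2 fold change of 0.18. Corrected for length and GC, the median was -0.16, with 7 members called on the Nono KO side and 9 on the other. Without Sox5 KO replicate 1 it was 0.10. Shh, Dhh and Hhip did not pass the filter, and the ligand Ihh was near the detection limit in both lines (edgeR adjusted p = 0.241). The co-receptor Cdon stood at 213, 199 and 214 CPM in the Nono KO libraries and 30.3, 31.3 and 31.4 CPM in those of Sox5 KO, with a WT mean of 70.6 CPM and a log2 fold change of 2.75 (SE 0.06, edgeR adjusted p = 7.67e-19). The co-receptors Boc and Gas1 were also higher in Nono KO, 2.16-fold and 2.15-fold. Cdon, Boc and Gas1, which present the ligand to its receptor, did not overlap between lines, as was the case at 69.1% of all tested genes. Of the Hedgehog list, 32% was called higher in Nono KO and 28% in Sox5 KO, near the 30.9% and 32.6% of all tested genes.

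The receptor Ptch1, which is also a target of the pathway, stood at 20.3, 18.8 and 17.9 CPM in the Nono KO libraries and 13.3, 11.9 and 13.2 CPM in those of Sox5 KO, a log2 fold change of 0.57 (SE 0.10, edgeR adjusted p = 5.56e-05), and with the length and GC correction this call was lost (log2 fold change -0.08). The target Gli1 stood at 1.41, 0.511 and 0.746 CPM in the Nono KO libraries and 0.371, 0 and 0.128 CPM in those of Sox5 KO and did not pass the test (edgeR adjusted p = 0.0751). Neither of these target genes showed a called difference that held under every setting run. The transducer Smo was lower in Nono KO, its log2 fold change being -0.36 (SE 0.05, edgeR adjusted p = 1.9e-06), and the ligand-release protein Disp1 was 2.45-fold lower.

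Downstream, Gli3, the main repressor form of the GLI factors, stood at 69.8, 74.8 and 80.2 CPM in the Nono KO libraries and 32.4, 34.6 and 34.4 CPM in those of Sox5 KO, a log2 fold change of 1.15 (SE 0.07, edgeR adjusted p = 1.31e-11), while Gli2 differed by 0.18 and was not called. Gsk3b, a kinase that marks GLI proteins for processing, was 2.73-fold higher in Nono KO and lies on chromosome 16. Sufu, the cytoplasmic inhibitor, had a log2 fold change of -0.41, Prkaca, a catalytic subunit of protein kinase A, -0.67, and Spop, a ubiquitin ligase adaptor, -0.37. These 3 were lower in Nono KO, but Sufu lies on chromosome 19 and stood at 0.15, not called, once chromosome medians were removed. Evc and Evc2, which act with Smo at the cilium base, were lower by a small margin (log2 fold changes of -0.21 and -0.27). Efcab7, which holds Evc in place, and Hhat, which adds palmitate to the ligands, were higher in Nono KO, at 0.71 and 0.74. Kif7, Iqce, Csnk1a1, Prkar1a and Scube3 were not called, with log2 fold changes between -0.17 and 0.83.

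Gpr161, a ciliary receptor that holds the pathway off, showed how 1 library can decide a value. It stood at 10.7, 41.5 and 41.7 CPM in the Nono KO libraries and 31.1, 31.9 and 31.8 CPM in those of Sox5 KO. Nono KO replicate 1 was far below the other 2 of its line, and the gene was not called (log2 fold change -0.02, edgeR adjusted p = 0.98). Without that library it was called higher in Nono KO, at a log2 fold change of 0.40.

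Receptor tyrosine kinases and their ligands had a median log2 fold change of 0.30, with 13 called higher in Nono KO and 6 called higher in Sox5 KO of 27 tested (40 in the table). The median was 0.19 without Nono KO replicate 2, 0.16 without Nono KO replicate 3 and 0.16 without Sox5 KO replicate 3. Vegfc, a growth factor of lymphatic vessels, stood at 2.34, 1.24 and 1.52 CPM in the Nono KO libraries and 30.4, 30.2 and 28.4 CPM in those of Sox5 KO, a log2 fold change of -4.12 (SE 0.17, edgeR adjusted p = 1.92e-14). Ereg, a ligand of the EGF receptor, was 2.33-fold higher in Nono KO. Fgf2 stood at 28.5, 28.03 and 30.9 CPM in the Nono KO libraries and 8.72, 0.407 and 7.85 CPM in those of Sox5 KO. Its second Sox5 KO library was far below the other 2, so its log2 fold change of 2.35 (SE 0.62, edgeR adjusted p = 0.0127) rests on an uneven group, and the call was lost when only the 6 libraries were fitted.

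The insulin-like growth factor axis held some of the largest differences in both directions. Igfbp5, a secreted IGF-binding protein, stood at 0.148, 0.195 and 0.249 CPM in the Nono KO libraries and 42.1, 52.1 and 45.7 CPM in those of Sox5 KO, with a WT mean of 0.380 CPM and a log2 fold change of -7.87 (SE 0.67, edgeR adjusted p = 5.65e-07). The proteases that cut IGF-binding proteins ran the other way. Pappa2 stood at 309, 318 and 338 CPM in the Nono KO libraries and 11.8, 17.05 and 15.8 CPM in those of Sox5 KO, a log2 fold change of 4.44 (SE 0.12, edgeR adjusted p = 2.62e-11), and Pappa at 334, 324 and 372 CPM in the Nono KO libraries and 29.3, 30.9 and 34.00 CPM in those of Sox5 KO, a log2 fold change of 3.45 (SE 0.07, edgeR adjusted p = 9.9e-19). Igf2, the growth factor itself and an imprinted gene, stood at 37.2, 35.7 and 41.5 CPM in the Nono KO libraries and 201, 244 and 246 CPM in those of Sox5 KO, with WT at 2.03 CPM. Igf2 and Igfbp5 were high in Sox5 KO and both proteases high in Nono KO, and all were named for the size of their differences. Over the list, 20 were tested and 12 were higher in Nono KO, 4 were higher in Sox5 KO and 4 were not called, with a median log2 fold change of 0.25, but with the length and GC correction the median was -0.03, with 6 members called on the Nono KO side and 7 on the other.

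Immediate-early genes had a median log2 fold change of 0.27, with 13 called higher in Nono KO and 6 called higher in Sox5 KO of 27 tested. Klf4, a zinc finger factor, stood at 169.8, 177 and 145 CPM in the Nono KO libraries and 47.6, 49.4 and 50.7 CPM in those of Sox5 KO, and Jun, a subunit of AP-1, at 231, 251 and 215 CPM in the Nono KO libraries and 94.4, 95.9 and 105 CPM in those of Sox5 KO. Dusp4, a phosphatase of MAP kinases, was lower in Nono KO, at 75.1, 76.4 and 60.7 CPM in the Nono KO libraries and 135, 169 and 171 CPM in those of Sox5 KO. Their log2 fold changes were 1.73, 1.24 and -1.16.

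Genes of axon guidance, which fibroblasts also use for contact and movement, were mostly higher in Nono KO. Of 48 tested (61 in the table), 27 were higher in Nono KO, 7 were higher in Sox5 KO and 14 were not called, with a median log2 fold change of 0.64. The secreted semaphorin Sema3a stood at 18.2, 21.6 and 18.8 CPM in the Nono KO libraries and 0.495, 0.203 and 0.319 CPM in those of Sox5 KO, a log2 fold change of 5.82 (SE 0.28, edgeR adjusted p = 1.86e-14). Sema3c stood at 23.7, 20.6 and 29.7 CPM in the Nono KO libraries and 1.61, 1.118 and 1.02 CPM in those of Sox5 KO, and its libraries in Xap5 KO had a mean of 102 CPM. The receptor Plxna4 stood at 13.1, 16.1 and 20.8 CPM in the Nono KO libraries and 1.52, 2.27 and 2.11 CPM in those of Sox5 KO, below the WT mean of 67.4 CPM in both lines. In all 3 genes the lines were separated without overlap. After the length and GC correction, the list median was 0.42, with 23 members called on the Nono KO side and 10 on the other.

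A list of neural genes was higher in Nono KO at several members with CPM well above 0. Of 12 tested (20 in the table), 8 were higher in Nono KO, 0 were higher in Sox5 KO and 4 were not called, with a median log2 fold change of 5.23. That median comes from fitted values. With members that have no counts in a line held to their lower bound it was 3.20. Map2, a microtubule-associated protein of neurons, stood at 24.9, 25.2 and 26.1 CPM in the Nono KO libraries and 0.0618, 0.305 and 0.287 CPM in those of Sox5 KO, with a WT mean of 11.6 CPM. Ncam1, a cell adhesion molecule, stood at 189, 189.6 and 177 CPM in the Nono KO libraries and 4.27, 4.85 and 5.84 CPM in those of Sox5 KO, a log2 fold change of 5.22 (SE 0.10, edgeR adjusted p = 9.03e-19). Nes, the intermediate filament nestin, stood at 14.2, 15.7 and 11.2 CPM in the Nono KO libraries and 0.371, 0.813 and 1.18 CPM in those of Sox5 KO, a log2 fold change of 4.12 (SE 0.27, edgeR adjusted p = 2.97e-11). The remaining called members were near the detection limit, each with a mean under 2 CPM.

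Positional transcription factors, whose pattern fibroblasts keep from their site of origin, differed in both directions. Of 22 tested Hox genes (39 in the table), 11 were higher in Nono KO, 2 were higher in Sox5 KO and 9 were not called, with a median log2 fold change of 0.55. Hoxa3 stood at 33.02, 27.8 and 33.9 CPM in the Nono KO libraries and 13.6, 9.86 and 13.7 CPM in those of Sox5 KO, and WT at 65.1 CPM. Hoxa6 was 2.35-fold higher in Nono KO. Neither gene overlapped between the lines, and Hoxa3 shares exon sequence with genes on either strand. Of 44 other homeobox, T-box and related factors, 24 were higher in Nono KO, 13 were higher in Sox5 KO and 7 were not called, with a median log2 fold change of 0.41. The median was 0.27 without Nono KO replicate 2 and 0.27 corrected for length and GC. Six4, Lhx9 and Osr2 were 3.59-fold, 3.38-fold and 3.12-fold higher in Nono KO. The log2 fold change of Six4 was 1.07 at the lowest of the alternatives run.

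Lists of primary cilium genes had small medians, with called members in both directions. Of 33 genes of intraflagellar transport, 17 were higher in Nono KO, 5 were higher in Sox5 KO and 11 were not called, with a median log2 fold change of 0.26. Dync2h1, the heavy chain of the retrograde motor, stood at 61.6, 63.5 and 60.3 CPM in the Nono KO libraries and 14.8, 18.8 and 17.7 CPM in those of Sox5 KO, with a WT mean of 47.7 CPM and a log2 fold change of 1.85 (SE 0.08, edgeR adjusted p = 1e-13). Wdr35, a subunit of the retrograde complex IFT-A, stood at 54.7, 53.2 and 59.5 CPM in the Nono KO libraries and 19.1, 21.6 and 23.4 CPM in those of Sox5 KO, a log2 fold change of 1.39 (SE 0.08, edgeR adjusted p = 9.1e-12). Ift172, a subunit of the anterograde complex IFT-B, stood at 52.6, 52.99 and 59.2 CPM in the Nono KO libraries and 22.6, 26.5 and 26.4 CPM in those of Sox5 KO, a log2 fold change of 1.13 (SE 0.08, edgeR adjusted p = 2.45e-10). Each was higher in every Nono KO library, and WT lay nearer Nono KO in Wdr35 (56.1 CPM) and Ift172 (58.9 CPM). Wdr35 lies on chromosome 12, and with chromosome medians removed the list median was 0.07, with 11 members called on the Nono KO side and 7 on the other.

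Of 42 genes of the BBSome, which carries membrane proteins, and of the transition zone at the cilium base, 11 were higher in Nono KO, 16 were higher in Sox5 KO and 15 were not called, with a median log2 fold change of 0.14. Count and median thus pointed in opposite directions, and with chromosome medians removed both turned, to -0.07, with 13 members called on the Nono KO side and 9 on the other. Cep290, a linker of the transition zone, stood at 22.8, 27.3 and 28.3 CPM in the Nono KO libraries and 8.01, 6.78 and 8.32 CPM in those of Sox5 KO, a log2 fold change of 1.76 (SE 0.11, edgeR adjusted p = 1.05e-11). Ttc8, a BBSome subunit, was 2.35-fold higher in Nono KO, but its log2 fold change was 0.46 at the lowest of the alternatives run. Tmem231, a membrane protein of the same zone, was lower in Nono KO, at 17.99, 19.1 and 19.5 CPM in the Nono KO libraries and 44.99, 47.7 and 43.00 CPM in those of Sox5 KO, a log2 fold change of -1.26 (SE 0.08, edgeR adjusted p = 4.15e-11). None of these 3 overlapped between lines. The list median was 0.083 and 0.09 without Nono KO replicate 1 or 2, and 0.045 corrected for length and GC.

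Basal body and centriole genes had a median log2 fold change of 0.22, with 16 called higher in Nono KO and 7 called higher in Sox5 KO of 38 tested. Nin, a protein of the subdistal appendages, was 2.80-fold higher in Nono KO, and Cep83, of the distal appendages that dock the centriole to the membrane, 2.31-fold. At the lowest of the alternatives run, the log2 fold change was 0.71 for Nin and 1.04 for Cep83. Cetn2, a small centriole protein encoded on chromosome X, was 2.33-fold lower. The direction of this list turned with the length and GC correction, to a median of -0.04, with 7 members called on the Nono KO side and 11 on the other.

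Transcription factors of ciliary genes numbered 15, of which 4 were higher in Nono KO, 3 were higher in Sox5 KO and 8 were not called, with a median log2 fold change of 0.22 (0.12 corrected for length and GC). Glis3 and Glis2, GLI-similar factors that localise to cilia, were 1.87-fold and 1.84-fold higher in Nono KO, and Rfx7, of the RFX family, 1.78-fold. The motile axoneme, which fibroblasts lack, was little read, with 22 of 48 genes tested; 7 were higher in Nono KO, 2 were higher in Sox5 KO and 13 were not called, with a median log2 fold change of 0.46. That median was 0.11 without Nono KO replicate 1, 0.25 without Sox5 KO replicate 3 and 0.17 with chromosome medians removed. Cfap300, Ccdc39 and Cfap69 stood at means of 7.42, 8.34 and 9.29 CPM in Nono KO and 4.31, 5.06 and 15.8 CPM in Sox5 KO.

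The partners of NONO were examined as a set. Of 14 tested DBHS and paraspeckle genes, 4 were higher in Nono KO, 8 were higher in Sox5 KO and 2 were not called, with a median log2 fold change of -0.27; Nono itself is 1 of those higher in Sox5 KO. Pspc1, a DBHS protein, stood at 51.6, 50.8 and 54.5 CPM in the Nono KO libraries and 22.5, 18.5 and 19.4 CPM in those of Sox5 KO, with a WT mean of 21.2 CPM and a log2 fold change of 1.38 (SE 0.11, edgeR adjusted p = 3.67e-10). Sfpq, the other DBHS protein, stood at 386, 400.2 and 387 CPM in the Nono KO libraries and 247, 249 and 249 CPM in those of Sox5 KO, with a WT mean of 366 CPM and a log2 fold change of 0.65 (SE 0.05, edgeR adjusted p = 1.54e-10). Both relatives of NONO were higher in every Nono KO library; WT lay near Sox5 KO in Pspc1 and nearer Nono KO in Sfpq. Sfpq shares exon sequence with a gene on its own strand.

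Other paraspeckle proteins split. Rbm14, an RNA-binding protein of paraspeckles, was higher in Nono KO, by 0.63 (SE 0.08, edgeR adjusted p = 3.68e-07) on the log2 scale. Ewsr1, of the FET family of RNA-binding proteins, stood at 221, 255 and 223 CPM in the Nono KO libraries and 463, 521 and 526 CPM in those of Sox5 KO, a log2 fold change of -1.11 (SE 0.06, edgeR adjusted p = 1.7e-12). Its relative Taf15 had a log2 fold change of 0.51, in the other direction. Taf15 was uneven in Sox5 KO, at 66.9, 106 and 97.99 CPM, and its call was lost without Nono KO replicate 2 and when only the 6 libraries were fitted. The cleavage factor subunits Nudt21 and Cpsf6, which choose poly(A) sites, had log2 fold changes of -0.55 and -0.27. Tardbp, Hnrnpk and Dazap1, all RNA-binding proteins, had log2 fold changes of -0.32, -0.28 and -0.43, and all 5 were called lower in Nono KO. Matr3 and Hnrnph3 were not called, at -0.01 and -0.09.

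Among Sox factors, 6 of 15 passed the filter, and 1 was higher in Nono KO, 2 were higher in Sox5 KO and 3 were not called, with a median log2 fold change of -0.16. Sox9, the cartilage factor that acts with SOX5, stood at 192, 209 and 181 CPM in the Nono KO libraries and 107, 95.5 and 116 CPM in those of Sox5 KO, with a WT mean of 341 CPM and a log2 fold change of 0.87 (SE 0.07, edgeR adjusted p = 5.3e-10). Sox12 was lower in Nono KO, and its log2 fold change was -0.46 (SE 0.08, edgeR adjusted p = 1.89e-05). Sox4 was not called, at 196, 196 and 237 CPM in the Nono KO libraries and 203, 204 and 236 CPM in those of Sox5 KO, and the groups overlapped. Sox6, the SoxD partner of SOX5, had 2 counts in each line in all, and Sox10 had none; both passed the filter through other libraries. Sox5, the remaining member, is given above. Without Nono KO replicate 2 the median of the Sox list was 0.0084, and corrected for length and GC it was -0.36.

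Cartilage matrix genes, textbook targets of the SOX trio, did not share a direction. Of 13 tested (21 in the table), 5 were higher in Nono KO, 3 were higher in Sox5 KO and 5 were not called, with a median log2 fold change of 0.39. Col2a1, the defining collagen of cartilage, stood at 0.0494, 0.828 and 0.0552 CPM in the Nono KO libraries and 11.3, 10.3 and 11.96 CPM in those of Sox5 KO, with a WT mean of 1.26 CPM and a log2 fold change of -5.13 (SE 0.78, edgeR adjusted p = 0.000342). It was higher in every library of the Sox5 KO line. Col9a3 was also higher in Sox5 KO, 1.75-fold. Col11a1, described above, was at 0 in the same libraries. The list median was 0.09 with the length and GC correction.

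Clock genes were called in both directions, at shares near those of all tested genes. Called higher in Nono KO were 26.1% against 30.9%, and higher in Sox5 KO 34.8% against 32.6%. Of 23 tested, 6 were higher in Nono KO, 8 were higher in Sox5 KO and 9 were not called, with a median log2 fold change of -0.13, and with the length and GC correction the median was -0.36, with 3 members called on the Nono KO side and 12 on the other. Leaving out 1 library gave medians from -0.24 (Nono KO replicate 3) to -0.066 (Nono KO replicate 1). The output factors of the PAR-bZIP family were all lower in Nono KO. Hlf stood at 20.1, 15.98 and 20.3 CPM in the Nono KO libraries and 44.6, 40.2 and 42.96 CPM in those of Sox5 KO, with a WT mean of 0.934 CPM and a log2 fold change of -1.18 (SE 0.12, edgeR adjusted p = 1.7e-08), and Dbp and Tef had log2 fold changes of -0.67 and -0.30. The call of Dbp was lost with chromosome medians removed. Nfil3, which opposes them at the same DNA sites, was higher by 0.65 (SE 0.13, edgeR adjusted p = 0.000156) on the log2 scale. The repressors Nr1d1 and Nr1d2 had log2 fold changes of -0.55 and -0.58, and their opponent at the same sites, the activator Rora, one of 0.81.

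In the core loop, the activators Arntl and Clock were higher in Nono KO by 0.26 and 0.30, and their relative Npas2 was lower, at -1.02. Clock turned to -0.44 and Rora fell to 0.01 with the length and GC correction. Per1 and Per3 were higher in Nono KO, at 0.32 and 0.62, but the call of Per1 was lost with the length and GC correction and without Sox5 KO replicate 1. Per2, Cry1 and Cry2 were not called, at -0.33, -0.22 and 0.13. The kinases Csnk1d and Csnk1e, which mark PER proteins, were lower in Nono KO, at -0.39 and -0.52. Bhlhe40, Bhlhe41, Ciart and Fbxl21 were not called. The outcome changed in 3 of 14 alternatives for Per2 and for Bhlhe41. It also changed in 2 of 14 for Cry1 and in 2 of 12 for Fbxl21. The cells were taken at a single time after serum removal, so phase and level cannot be told apart.

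Of 12 D-type cyclins, their kinases, CDK inhibitors and pocket proteins, 7 were higher in Nono KO, 3 were higher in Sox5 KO and 2 were not called, with a median log2 fold change of 0.37. Ccnd2 stood at 405, 409 and 429.7 CPM in the Nono KO libraries and 102, 115 and 115 CPM in those of Sox5 KO, with a WT mean of 208 CPM and a log2 fold change of 1.91 (SE 0.05, edgeR adjusted p = 7.78e-17). Ccnd1 stood at 372, 363 and 299 CPM in the Nono KO libraries and 145, 159 and 164 CPM in those of Sox5 KO, a log2 fold change of 1.14 (SE 0.09, edgeR adjusted p = 1.61e-07), and Ccnd3 had one of 0.39. All 3 D cyclins, which drive entry into the cell cycle, were higher in Nono KO, without overlap. Their kinases diverged, with Cdk6 2.099-fold higher and Cdk4 1.44-fold lower in Nono KO. The log2 fold change of Cdk6 was 0.28 at the lowest of the alternatives run. Of the CDK inhibitors, Cdkn1b (p27) and Cdkn2c were higher, at 0.81 and 0.34, Cdkn2d was lower, at -0.70, and Cdkn1a (p21) did not differ beyond its spread, at 274, 285 and 297 CPM in the Nono KO libraries and 285, 290.5 and 279 CPM in those of Sox5 KO. At the lowest of the alternatives run, Cdkn2c stood at 0.08. Cdkn2a and Cdkn2b had 0 counts in every library of both lines. Among pocket proteins, Rb1 and Rbl2 stood at 0.59 and -0.57, and Rbl1 was not called.

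Genes of S phase were more often lower in Nono KO. Of 38 tested, 5 were higher in Nono KO, 17 were higher in Sox5 KO and 16 were not called, with a median log2 fold change of -0.24. Ccne1, cyclin E1, stood at 12.3, 14.1 and 9.80 CPM in the Nono KO libraries and 27.6, 25.01 and 27.6 CPM in those of Sox5 KO, a log2 fold change of -1.14 (SE 0.11, edgeR adjusted p = 1.28e-08). Mcm6, a subunit of the replicative helicase, stood at 65.8, 75.2 and 46.5 CPM in the Nono KO libraries and 124, 127 and 129 CPM in those of Sox5 KO, a log2 fold change of -1.02 (SE 0.15, edgeR adjusted p = 0.000227), and Ung, which removes uracil from DNA, was 2.44-fold lower. In all 3 the Nono KO libraries lay below the Sox5 KO libraries. Nono KO replicate 3 was the lowest of its line in Ccne1 and Mcm6, and without it the list median was -0.04. Corrected for length and GC it was -0.41. The count called higher in Nono KO was 2 without Nono KO replicate 1 or Sox5 KO replicate 2 and 3 without Nono KO replicate 2.

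Genes of mitosis showed no common direction. Of 40 tested, 12 were higher in Nono KO, 8 were higher in Sox5 KO and 20 were not called, with a median log2 fold change of 0.12. Without Nono KO replicate 3 the counts were 20 and 5 and the median 0.25, and without Nono KO replicate 2 the median was 0.024. Corrected for length and GC, it was -0.03, with 7 members called on the Nono KO side and 8 on the other. The summed level was 1011 to 1407 CPM in Nono KO and 990.3 to 1061 CPM in Sox5 KO. Cenpe and Cenpf, kinetochore proteins with long transcripts, were 3.23-fold and 2.36-fold higher in Nono KO, and Ccnb2, cyclin B2, was 2.14-fold lower. Of 25 p53 targets, 13 were higher in Nono KO, 8 were higher in Sox5 KO and 4 were not called, with a median log2 fold change of 0.23. The median was 0.14 without Sox5 KO replicate 3 and 0.064 with chromosome medians removed. Bax, which opens mitochondria in cell death, stood at 76.7, 75.4 and 69.7 CPM in the Nono KO libraries and 213, 210.1 and 195 CPM in those of Sox5 KO, a log2 fold change of -1.48 (SE 0.06, edgeR adjusted p = 2.15e-14). Plk2 and Btg2, both brakes on growth, were 2.73-fold and 2.63-fold higher in Nono KO, so p53 targets did not share a direction.

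Cytosolic ribosomal protein genes had the lowest median of the lists with at least 10 tested genes. Of 82, 0 were higher in Nono KO, 76 were higher in Sox5 KO and 6 were not called, with a median log2 fold change of -0.94. Their summed level was 29733 to 33188 CPM in Nono KO and 49339 to 56068 CPM in Sox5 KO, and 23596 to 23672 CPM in WT. Rpl39 stood at 106, 54.1 and 73.2 CPM in the Nono KO libraries and 251, 369.7 and 278 CPM in those of Sox5 KO, Rpl30 at 23.1, 18.8 and 18.5 CPM in the Nono KO libraries and 53.6, 70.5 and 87.7 CPM in those of Sox5 KO, and Rpl35a at 6.93, 4.80 and 4.94 CPM in the Nono KO libraries and 21.9, 18.7 and 17.2 CPM in those of Sox5 KO. Each is a subunit of the large ribosomal subunit, and each was lower in every Nono KO library. Their transcripts are short, with a median of 1076.5 bases, and they sit at the end of the length trend at which Sox5 KO was high; the part of that trend in their difference was not tested beyond the correction given next. Corrected for length and GC, the median was -0.66, with 6 members called on the Nono KO side and 58 on the other, and the list was no longer the lowest, with NRF2 genes at -0.74. Many have near-identical pseudogenes, so their counts are uncertain. Gapdh, chosen after its values were seen as a gene with many such copies, stood at 10.5, 41.7 and 11.8 CPM in the Nono KO libraries and 38.1, 24.98 and 85.96 CPM in those of Sox5 KO.

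Antioxidant genes of the NRF2 pathway had the next lowest. Of 33, 3 were higher in Nono KO, 26 were higher in Sox5 KO and 4 were not called, with a median log2 fold change of -0.86. Gsta3, a glutathione transferase, stood at 2.25, 1.53 and 1.52 CPM in the Nono KO libraries and 40.9, 37.3 and 40.8 CPM in those of Sox5 KO, with a WT mean of 0.0567 CPM and a log2 fold change of -4.48 (SE 0.29, edgeR adjusted p = 9.93e-08). Gstp1 stood at 169, 149.6 and 145 CPM in the Nono KO libraries and 566, 591 and 537 CPM in those of Sox5 KO, a log2 fold change of -1.87 (SE 0.06, edgeR adjusted p = 6.41e-16). Gstm2 was 3.25-fold higher in Sox5 KO. These 3 transferases, which join glutathione to toxic compounds, were higher in every Sox5 KO library. The summed level of the list was 7406 to 7819 CPM in Nono KO and 12892 to 14115 CPM in Sox5 KO. After the length and GC correction, the median was -0.74, with 3 members called on the Nono KO side and 27 on the other.

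Lysosomal genes were also mostly higher in Sox5 KO. Of 45 tested, 9 were higher in Nono KO, 32 were higher in Sox5 KO and 4 were not called, with a median log2 fold change of -0.46. Gla, an alpha-galactosidase encoded on the X chromosome, had 51.7, 47.5 and 50.8 CPM in the Nono KO libraries and 175, 175 and 157 CPM in those of Sox5 KO, a log2 fold change of -1.76 (SE 0.06, edgeR adjusted p = 5.48e-16). Atp6v1b2, a subunit of the proton pump that acidifies the lysosome, stood at 185, 175 and 190.3 CPM in the Nono KO libraries and 559, 589 and 539 CPM in those of Sox5 KO, a log2 fold change of -1.62 (SE 0.06, edgeR adjusted p = 1.2e-14). In both, every Sox5 KO library was more than 2-fold above every Nono KO library. Tfec, of the MiT family of factors that includes the lysosomal regulator TFEB, was the exception among those named, at 12.2, 11.4 and 11.2 CPM in the Nono KO libraries and 0.0309, 0.136 and 0 CPM in those of Sox5 KO, with 0 in WT and a mean of 28.1 CPM in Xap5 KO.

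Genes of energy and lipid metabolism followed in the same direction with smaller medians. Of 37 genes of glycolysis and the hypoxia response, 7 were higher in Nono KO, 17 were higher in Sox5 KO and 13 were not called, with a median log2 fold change of -0.39. Egln3, a hypoxia-induced oxygen sensor, was 4.68-fold higher in Sox5 KO, and Pfkfb3, which makes an activator of glycolysis, 2.53-fold. Ndrg1, another hypoxia-induced gene, was 2.48-fold lower there, at 118, 119 and 129.8 CPM in the Nono KO libraries and 46.2, 51.6 and 50.5 CPM in those of Sox5 KO. Of 36 sterol and fatty acid genes, 11 were higher in Nono KO, 19 were higher in Sox5 KO and 6 were not called, with a median log2 fold change of -0.24. Abca1, a cholesterol exporter like Abcg1 above, stood at 35.8, 34.4 and 45.7 CPM in the Nono KO libraries and 96.7, 118 and 106 CPM in those of Sox5 KO, a log2 fold change of -1.47 (SE 0.11, edgeR adjusted p = 2.86e-08). Both exporters were higher in every Sox5 KO library, and Ebp, an enzyme of cholesterol synthesis on chromosome X, was 2.77-fold higher. The sterol list's median was -0.12 with chromosome medians removed, -0.15 without Nono KO replicate 3 and -0.37 corrected for length and GC.

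Splicing genes were more often higher in Sox5 KO. Of 47 core spliceosome genes, 7 were higher in Nono KO, 26 were higher in Sox5 KO and 14 were not called, with a median log2 fold change of -0.24. Snrpb, a core Sm protein, stood at 98.3, 89.4 and 95.03 CPM in the Nono KO libraries and 237, 237 and 215 CPM in those of Sox5 KO, a log2 fold change of -1.28 (SE 0.07, edgeR adjusted p = 4.05e-12), and Snrpn, its imprinted paralog, was 3.56-fold higher in Sox5 KO. Snrpg, another Sm protein, was uneven, at 20.6, 6.45 and 15.4 CPM in Nono KO, and lost its call in 7 of 14 alternatives. Of 40 SR proteins, hnRNPs and other splicing regulators, 8 were higher in Nono KO, 21 were higher in Sox5 KO and 11 were not called, with a median log2 fold change of -0.18. The regulators Ptbp3, Mbnl1 and Celf2 ran against the list and were 2.28-fold, 2.22-fold and 2.04-fold higher in Nono KO. The log2 fold change of Celf2 was 0.32 at the lowest of the alternatives run.

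Imprinted genes were split, with large differences on chromosome 7. Of 26 tested (37 in the table), 11 were higher in Nono KO, 12 were higher in Sox5 KO and 3 were not called, with a median log2 fold change of -0.12. Without Nono KO replicate 2 the median was 0.025, without Sox5 KO replicate 1 it was 0.019, and corrected for length and GC -0.30. Peg3, a zinc finger protein expressed from the paternal allele, stood at 38.9, 42.9 and 36.9 CPM in the Nono KO libraries and 189, 207 and 213 CPM in those of Sox5 KO, with a WT mean of 100.2 CPM and a log2 fold change of -2.36 (SE 0.08, edgeR adjusted p = 2.9e-15). Igf2 and Ndn, both given above, and Peg3 all lie on chromosome 7 and were higher in every Sox5 KO library. They were named for the size of their differences. Over all 1020 tested genes of chromosome 7 the median was -0.38. Of these genes, 49.6% were called higher in Sox5 KO and 13.3% higher in Nono KO.

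Innate immune genes showed no common direction. Of 44 interferon-response genes, 15 were higher in Nono KO, 12 were higher in Sox5 KO and 17 were not called, with a median log2 fold change of 0.29. Mx1, an antiviral GTPase, stood at 0, 0 and 0.249 CPM in the Nono KO libraries and 5.29, 6.71 and 4.72 CPM in those of Sox5 KO, a log2 fold change of -6.10 (SE 0.96, edgeR adjusted p = 2.78e-05). Sting1, the sensor adaptor of cytosolic DNA, stood at 4.54, 4.97 and 2.96 CPM in the Nono KO libraries and 15.1, 15.1 and 14.8 CPM in those of Sox5 KO, a log2 fold change of -1.85 (SE 0.18, edgeR adjusted p = 1.7e-08), and Gbp2, another GTPase, was 2.73-fold higher in Nono KO. Of 39 chemokines, cytokines and related genes, 7 were higher in Nono KO, 15 were higher in Sox5 KO and 17 were not called, with a median log2 fold change of -0.17 (-0.26 without Nono KO replicate 1). Cxcl12, a chemokine of stromal cells, stood at 228, 223 and 247 CPM in the Nono KO libraries and 23.9, 24.03 and 26.6 CPM in those of Sox5 KO, a log2 fold change of 3.23 (SE 0.09, edgeR adjusted p = 1.29e-14). Ackr3, its scavenger receptor, stood at 22.6, 25.1 and 26.4 CPM in the Nono KO libraries and 1.299, 1.76 and 1.37 CPM in those of Sox5 KO, with a WT mean of 25.4 CPM and a log2 fold change of 4.06 (SE 0.18, edgeR adjusted p = 3.29e-14). Ligand and scavenger receptor were both higher in every Nono KO library. Saa3, an acute-phase protein, stood at 56.8, 46.9 and 44.7 CPM in the Nono KO libraries and 334, 349 and 331 CPM in those of Sox5 KO, a log2 fold change of -2.77 (SE 0.10, edgeR adjusted p = 1.28e-10).

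Complement genes had a median log2 fold change of 0.57, with 8 called higher in Nono KO and 1 called higher in Sox5 KO of 13 tested. C4b stood at 29.2, 27.6 and 20.99 CPM in the Nono KO libraries and 1.52, 1.56 and 1.79 CPM in those of Sox5 KO, a log2 fold change of 4.00 (SE 0.22, edgeR adjusted p = 5.26e-11), and its counts may include the near-identical gene next to it. C1s1, a protease of the first complex, was 1.68-fold higher in Nono KO, and Cd55, which protects cells from complement, 1.94-fold. These 3 did not overlap between lines.

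Stress and mitochondrial genes completed the lists. Of 40 genes of the ATF4 and unfolded protein responses, 14 were higher in Nono KO, 9 were higher in Sox5 KO and 17 were not called, with a median log2 fold change of 0.08, and the length and GC correction gave 21 and 10 and a median of 0.16. Vldlr, a lipoprotein receptor, stood at 43.2, 40.96 and 48.9 CPM in the Nono KO libraries and 8.66, 8.40 and 8.10 CPM in those of Sox5 KO, a log2 fold change of 2.40 (SE 0.09, edgeR adjusted p = 1.19e-14), and Trib3, a stress-induced pseudokinase, was 2.22-fold higher in Nono KO. Of 13 protein genes of the mitochondrial genome, 6 were higher in Nono KO, 0 were higher in Sox5 KO and 7 were not called, with a median log2 fold change of 0.17. Corrected for length and GC, the median was 0.63, with 13 members called on the Nono KO side and 0 on the other. The complex I subunits mt-Nd5 and mt-Nd4l were 2.24-fold and 2.25-fold higher in Nono KO. Mitochondrial genes took 7.50% ± 0.444 of Nono KO counts and 6.61% ± 0.478 of Sox5 KO counts (SD, n = 3 libraries per line), for which an exact two-sided permutation test gave p = 0.1, the smallest possible here.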

How the data were processed

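Total RNA was extracted with TRIzol and made into libraries with NEBNext Ultra II RNA, per the labels' protocols. The values are estimated counts per gene that the authors deposited for all 11 libraries; the submitters' processing notes name HISAT2 2.1.0, StringTie 1.3.3b, DESeq2 1.12.4 and the GRCm39 genome. The annotation, the counting settings and the use of strand are not given in the sources used here, so genes that share exon sequence on either strand cannot be told apart. All values were whole numbers and were used as deposited.

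Genes were kept with edgeR's filterByExpr (minimum count 10, minimum total 15). The 11 libraries were fitted together with TMM scaling and edgeR 4.0.16's quasi-likelihood test (R 4.3.3), without covariates. The contrast was Nono KO minus Sox5 KO, and p-values were adjusted by Benjamini-Hochberg over 13332 genes. Calls were made at an adjusted p under 0.05. Alternatives were DESeq2 1.42.0, library totals alone, no filter and a stricter one, only the 6 libraries, a replicate block, removal of chromosome medians, leaving out each replicate and, chosen after seeing the data, a correction (offset) for longest-transcript length and GC (splines with 5 degrees of freedom). The test was also run on simulated data in which few genes changed and no chromosome or length trend was set. That setting is unlike these data, so it does not check the calls against such trends.

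Chromosome, length, GC content and overlaps came from GENCODE M21 on GRCm38, which matched 21540 of 21684 identifiers. The named genes are the targeted genes, the 12 largest differences in each direction among called, non-overlapping genes with a mean of at least 5 CPM, up to 3 called members of each of 54 lists with the largest differences at that level, and the tested members of the DBHS, Sox, clock, Hedgehog and D-cyclin lists. Some genes the rule names are not reported here. Other genes named were chosen after their values were seen. The comparison and the lists were chosen with earlier results of these data known. Folds and intervals from low counts cover counting error only. In bulk RNA, fewer cells with a transcript and less of it per cell cannot be told apart.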

Additional observations from a re-analysis of the deposited data

How the results depend on the processing

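The number of called genes stayed between 7840 and 8512 under every alternative run, against 8461. With chromosome medians removed, 78.7% of the calls were kept, 168 genes were called in the opposite direction, and 0 of the 16 chromosomes remained more than 0.1 from 0, as the correction is built to do. With the length and GC correction, 80% were kept, 190 were called in the opposite direction, and 43.4% of calls were higher in Nono KO against 48.6%. With library totals alone, the median of all genes was -0.05 and the share 44.8%.

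Replicate numbers did not pair the libraries: correlations of same-numbered libraries were 0.00109, 0.0024 and -0.0226. With a replicate block, 8349 genes were called.

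Direction turned in these cases, and the cause was not tested. With chromosome medians removed, Matr3 was 0.13, Sufu 0.15, Kif7 0.21 and the BBSome median -0.067. With the length and GC correction, Clock was -0.44, Ptch1 -0.082, Csnk1a1 -0.16 and Runx2 -0.11, and list medians were -0.038 for basal body, -0.16 for Hedgehog, -0.031 for IGF, -0.034 for mitosis and -0.13 for osteoblast genes. The adipocyte median was -0.14 both with the stricter filter and with only the 6 libraries, and the leukocyte median -0.21 with the stricter filter. Leaving out each replicate, Gpr161 ran from -0.28 to 0.40, and medians from -0.25 to 0.0084 for Sox factors, -0.17 to 0.025 for imprinted genes, 0 to 3.12 for chromosome Y genes and -0.17 to 0.38 for adipocyte genes.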
